A study of Mus musculus with 10 samples.

Results

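Mouse bone marrow-derived macrophages (BMDMΦs) kept with interferon-γ (IFNγ) were compared with BMDMΦs that were not stimulated, and the response was followed across all genes of the array, including those that fell. The comparison rested on 4 of the 10 arrays of the series, the 2 IFNγ arrays and the 2 not stimulated (DMEM) arrays, chosen by their titles and not by any measured value. All 22206 probe sets were examined. Of these, 19572 carried 1 gene symbol, which gave 19505 genes, and 2634 carried none.

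The macrophages were grown from bone marrow of male C57Bl/6J mice of 8 to 12 weeks of age for 7 days in complete medium with 25% medium conditioned by L929 cells, the source of the macrophage growth factor M-CSF. No engineered allele of the macrophages is named for any group. Each condition then lasted 48 h: complete medium alone (not stimulated), IFNγ at 100 units/mL, IL4 at 10 ng/mL, or conditioned medium of cancer-associated fibroblasts (CAF CM) that were wild-type (WT) or Snai1 knockout (KO). These fibroblasts had been serum-starved, so serum may also differ between CAF CM and the other conditions. The study used IFNγ and IL4 as reference stimuli beside CAF CM. Each array title opened with 1 of 2 identifiers, both found in all conditions and called replicates 1 and 2 here. The labels did not say whether an identifier names a mouse, a culture or another shared source, so the p-values measure the spread between these arrays, which may be technical.

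IFNγ is a cytokine that T cells and natural killer cells make and that activates macrophages against microbes and tumour cells. It binds a receptor of IFNGR1 and IFNGR2 chains, which signals through the kinases JAK1 and JAK2 to gamma-activated sites (GAS) near target genes. Among the first targets are transcription factors of the IRF family, which bind interferon-stimulated response elements (ISRE) and extend the response to further genes. Known outputs in macrophages are antigen presentation, chemokines that attract T cells, GTPases that attack intracellular pathogens, and nitric oxide, while SOCS1 limits the signal.

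Values are signals on a log2 scale, so that a difference of 1 is a doubling. Array medians lay between 5.57 and 5.71, and probe sets below these medians are described as dim. The 2 replicates of a condition correlated across probe sets with r = 0.9948 for not stimulated and 0.9952 for IFNγ BMDMΦs, and 6 and 8 probe sets respectively were more than 4-fold apart between them. Markers of macrophages such as Csf1r and Adgre1 were bright in both conditions, though not all markers were steady. Not stimulated arrays had Csf1r, the M-CSF receptor, at 17.23 and 17.27 and Adgre1, which encodes F4/80, at 16.28 and 16.43. With IFNγ, Csf1r was at 16.86 and 16.96 and Adgre1 at 15.55 and 15.98, and neither difference passed the test. Cd14 fell from 14.27 and 14.3 to 9.94 and 10.07. Of 27 macrophage identity genes and lineage factors, 10 were lower and 3 higher. The 2 markers named for the IFNγ condition, Cxcl9 and Cd86, were higher with IFNγ in both replicates, as described with their families.

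At an adjusted p under 0.05 (limma on all 10 arrays, Benjamini-Hochberg adjustment over all probe sets), 2679 probe sets (12.1%) differed between IFNγ and not stimulated BMDMΦs. Of these, 1195 were higher with IFNγ (5.38%) and 1484 were lower (6.68%). The larger changes leaned to the other side. Among the called probe sets, 312 rose and 257 fell by at least 4-fold, 145 rose and 88 fell by at least 8-fold, and 55 rose and 8 fell by at least 32-fold. The median difference over all probe sets was -0.01. Called rises started at a median level of 9.6 and ended at 11.42, and called falls went from 10.6 to 9.07. Of the rises, 166 (13.9%) came from probe sets that were dim in both not stimulated arrays, and 170 falls (11.5%) ended dim in both IFNγ arrays. Leaving out 1 array of the 4 lowered the total to between 1642 (without not stimulated replicate 1) and 1914 (without not stimulated replicate 2). Bulk RNA cannot tell fewer cells of a type from less RNA per cell.

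**Figure D1:**
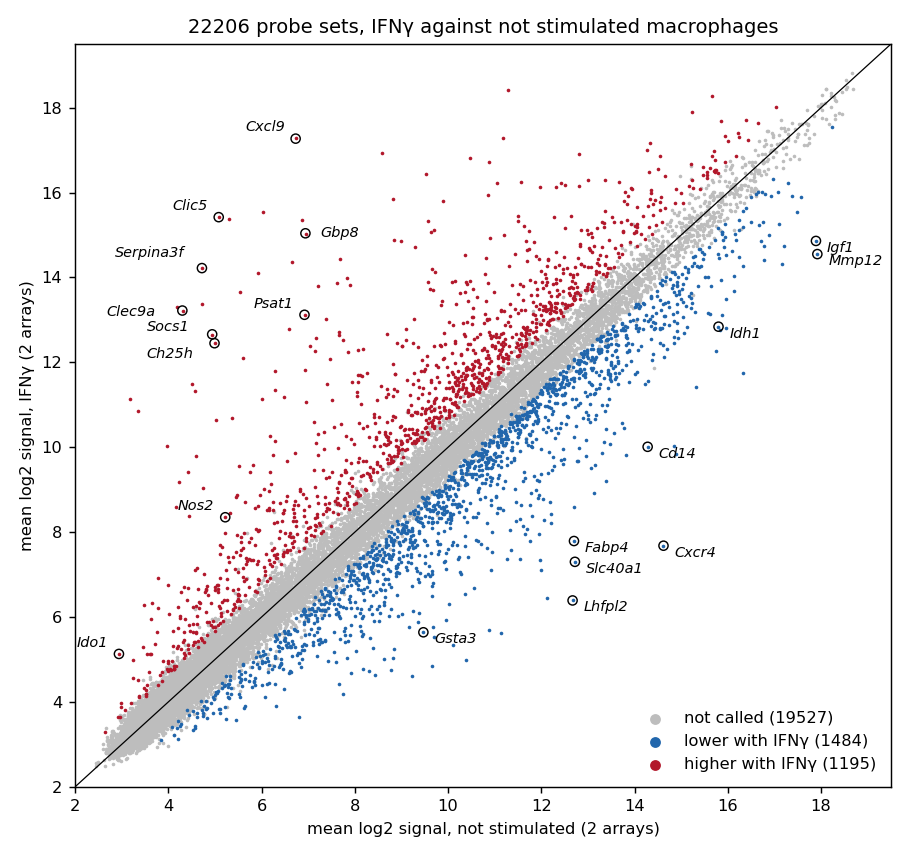
Mean log2 signal of the 2 IFNγ arrays (y axis) against that of the 2 not stimulated arrays (x axis), 1 point per probe set, with the line of equal levels. Red points are the 1195 called higher, blue points the 1484 called lower and grey points those not called. The rises reach 10.54 above the line (Cxcl9), while for Cxcr4, the farthest below it, the difference is -6.94.

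The other stimuli give the context for these calls. IFNγ differed from IL4 in 2672 probe sets (12%) and from the mean of WT and KO CAF CM in 3373 (15.2%). All of these comparisons share the IFNγ arrays. In 867 of the 1195 rises both IFNγ arrays lay above all 6 IL4 and CAF CM arrays, and in 674 of the 1484 falls both lay below them. The same share over all probe sets was not counted. These probe sets were also chosen for their difference on the same IFNγ arrays. The counts therefore do not measure how particular the response was to IFNγ. Genes named below without their IL4 and CAF CM values may have moved in the same way with those stimuli.

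The largest rise was that of Cxcl9, a chemokine that draws T cells through the receptor CXCR3. Its signals were 8.08 and 5.38 in not stimulated and 17.59 and 16.96 in IFNγ BMDMΦs, a difference of 10.54 ± 0.70 (SE, n = 2 arrays a group) or about 1490-fold, with an adjusted p of 1.6e-06. The other 6 arrays lay between 4.3 and 7.5, and Cxcl9 was higher with IFNγ by 12.70 against IL4 and by 10.64 against CAF CM. Clic5, a chloride intracellular channel protein, followed with 5.48 and 4.68 against 15.58 and 15.25 (10.34 ± 0.37). Gm4841 went from 5.85 and 4.74 to 15.52 and 15.24. For each of these genes both IFNγ arrays lay far above both not stimulated arrays.

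Next in size were Iigp1 and Serpina3f. Serpina3f, a secreted serine protease inhibitor, had signals of 5.08 and 4.36 against 14.23 and 14.22 (9.51 ± 0.25). Cnn3, an actin-binding calponin, was at 4.36 and 4.01 without and at 13.36 and 13.24 with IFNγ. Clec9a, a lectin receptor for actin of dead cells that is best known from cross-presenting dendritic cells, rose from 4.41 and 4.2 to 13.45 and 12.99, or 483-fold (8.91 ± 0.23), while the 6 arrays of the other stimuli stayed between 3.72 and 4.24. Dnase1l3, a secreted nuclease that degrades DNA in chromatin, rose by 8.66 ± 0.23. Calhm6, of the calcium homeostasis modulator family, rose by 8.47 ± 0.30. Upp1, which splits uridine, went from 3.53 and 3.18 to 10.74 and 10.96, and Ch25h, which makes 25-hydroxycholesterol, from 4.87 and 5.11 to 11.73 and 13.17.

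The largest fall was that of Cxcr4, the receptor for CXCL12. It had 14.74 and 14.49 without IFNγ and 7.97 and 7.39 with it, a fall of 6.94 ± 0.24 or 122-fold (adjusted p = 9.4e-09). The IL4 and CAF CM arrays lay in between, from 8.4 to 12.84. Lhfpl2, a tetraspan membrane protein, fell from 12.53 and 12.81 to 6.2 and 6.58. Zfyve28 changed by -5.68 ± 0.36. Slc40a1 encodes ferroportin, the iron exporter of the cell, and went from 13.09 and 12.36 to 7.38 and 7.23 (-5.42 ± 0.28). Gpr183, the receptor for oxysterols made downstream of CH25H, went from 10.47 and 10.31 to 5.26 and 4.71. It thus moved opposite to Ch25h on the same arrays.

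S1pr1, a receptor for sphingosine-1-phosphate, had 9.63 and 9.69 against 4.66 and 5.01. Fabp4, a fatty acid carrier, had 12.78 and 12.61 against 7.5 and 8.08 (-4.90 ± 0.34). Emp1, an epithelial membrane protein, differed by -4.82 ± 0.43, Olfml3 by -4.88 ± 0.31 and Cd28, a receptor best known from T cells, by -4.64 ± 0.34. Clec4d, an activating C-type lectin for mycobacterial glycolipid, went from 16.41 and 16.26 to 11.75 and 11.76, and its 6 other arrays lay between 14.15 and 17.13. Not every large fall set IFNγ apart from the other stimuli. For Olfml3 the IL4 and CAF CM arrays lay at 6.09 to 7.77 and included the IFNγ values of 7.22 and 7.0. Cd28 had 7.04 and 7.64 with IFNγ and 6.25 to 8.15 with CAF CM.

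**Figure D2:**
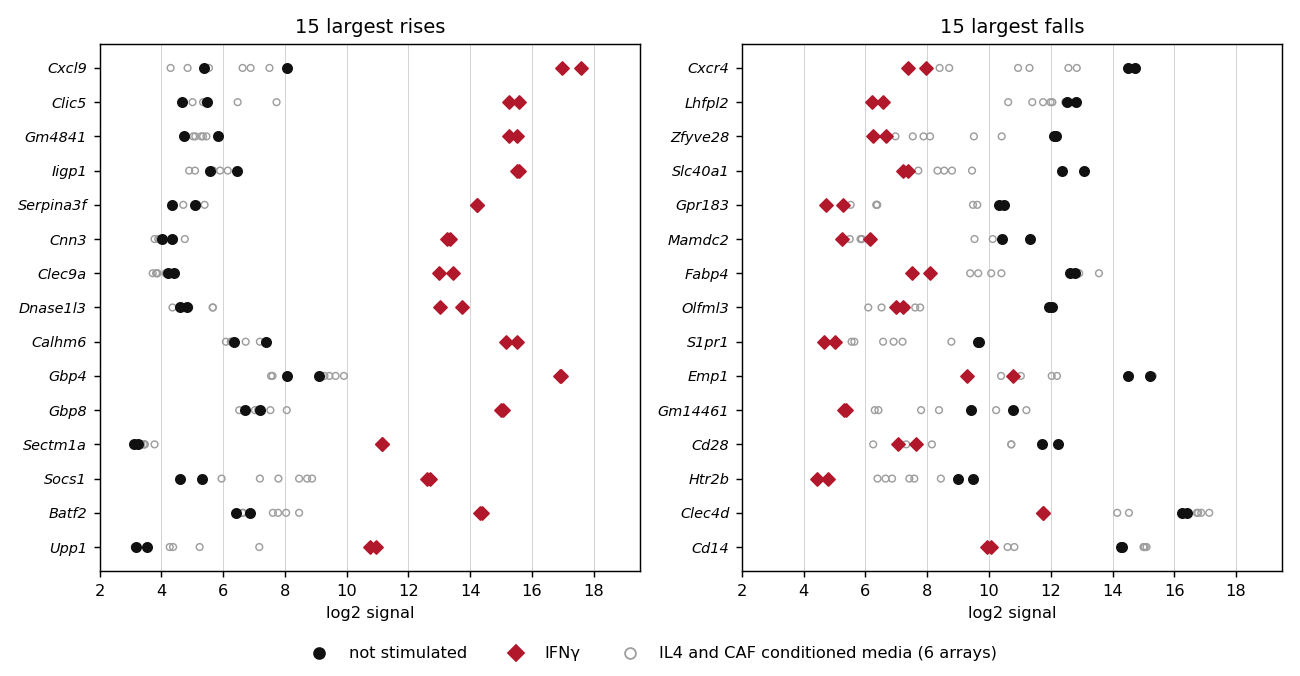
Log2 signal of each array for the 15 genes with the largest called rises and the 15 with the largest called falls. Black circles are the 2 not stimulated arrays, red diamonds the 2 IFNγ arrays and open grey circles the 6 IL4 and CAF CM arrays. Cxcl9 leads the rises with a not stimulated array at 8.08 and an IFNγ array at 16.96, and Cxcr4 leads the falls.

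The counts of each gene group below stand beside 5.38% higher and 6.68% lower over all probe sets. Genes in several groups, such as Slc40a1, Trim21 and Cd14, count in each, so the groups are not separate evidence. Genes of the IFNγ receptor and its JAK-STAT pathway moved in both directions, with 9 of 30 measured genes higher and 3 lower (median 0.00). Socs1, which binds JAK kinases and blocks them, led with 4.59 and 5.3 against 12.6 and 12.71 (7.71 ± 0.56, or 209-fold). Stat3 rose from 12.44 and 12.3 to 14.18 and 14.39, and Stat2, a factor of type I interferon signalling, by 1.42 ± 0.21. Jak2 rose from 11.32 and 11.13 to 12.85 and 12.9. It stayed below all 6 IL4 and CAF CM arrays, which lay between 13.01 and 14.29. Among inhibitors, Usp18, which blocks type I interferon receptors, rose by 2.02 ± 0.27 and Ptpn2, a phosphatase of JAK and STAT proteins, by 1.52 ± 0.21. The ligand-binding receptor chain went the other way, with Ifngr1 at 13.87 and 13.73 without and 12.87 and 12.64 with IFNγ (-1.04 ± 0.19, adjusted p = 0.0031). Ifngr2 (-0.24, adjusted p = 0.53) and Jak1 (-0.11, adjusted p = 0.85) did not pass the test. The count of 3 lower genes became 1 when any 1 of the 4 arrays was left out.

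Of 18 interferon regulatory factors and their partners, 9 were higher and 1 was lower (median 1.13, against -0.01 for all probe sets). Batf2, a leucine zipper partner of IRF1, went from 6.88 and 6.43 to 14.39 and 14.32 (7.70 ± 0.27). Irf1, an early IRF of the interferon response, rose from 12.24 and 11.72 to 16.15 and 16.13 (4.16 ± 0.26), and Irf8, which is needed for monocyte and dendritic cell fates, from 11.05 and 10.92 to 13.41 and 13.92. All 6 arrays of the other stimuli had Irf8 at 10.57 or lower. Trim21, a ubiquitin ligase that binds antibody in the cytosol, rose by 2.18 ± 0.25. Nmi, which binds STAT proteins, rose by 1.85 ± 0.19. Irf2bp2, a co-repressor that binds IRF2, was the member that fell, from 13.18 and 13.15 to 10.95 and 10.59. Irf7, the master factor of type I interferon genes, had 14.71 and 15.69 against 16.54 and 16.69 and missed the threshold (1.42, adjusted p = 0.07).

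All 18 measured genes on the list of interferon-inducible GTPases were higher with IFNγ, with a median difference of 5.29. These proteins assemble on the vacuoles of bacteria and parasites and help to break them. Iigp1, of the immunity-related GTPases, went from 6.46 and 5.58 to 15.57 and 15.5 (9.52 ± 0.26), and Igtp from 9.43 and 9.82 to 15.05 and 15.1. Of the guanylate-binding proteins, Gbp4 had 9.09 and 8.07 against 16.93 and 16.92. Gbp8 had 7.18 and 6.71 against 15.06 and 15.01. Gbp2 went from 11.89 and 10.7 to 18.4 and 18.42 (139-fold), close to the brightest probe sets of any array. Irgm1, which keeps the other members off host membranes, started brighter and rose less (13.78 and 14.05 against 16.1 and 16.13). Smallest were the 0.81 and 0.80 of 9930111J21Rik1 and 9930111J21Rik2, which lost their calls without any 1 of the 4 arrays (0.74 to 0.87). Members of these families are close copies of each other, so a probe set may have read more than 1 of them. Leaving out 1 array of the 4 left 15 or 16 of the 18 called.

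Promoter windows were read for these genes because both elements of the pathway are defined by short letters. The windows run from 250 bases before to 50 bases after the annotated start in RefSeq (GRCm38.p6), and 15691 of the 19505 measured genes matched at least 1. GAS was searched as TTCNNNGAA and ISRE as GAAA, any 2 bases, GAAA, on both strands, as were the other letters searched. An ISRE was found in 3.44% of all windows, in 9.03% of the 1129 windows of genes that rose and in 1.97% of the 1472 windows of genes that fell. GAS letters were found in 8.3%, 8.95% and 5.77%. Of the 10 windows of the 9 GTPase genes matched, 8 held an ISRE and 4 a GAS, each of these 4 beside an ISRE. Of the 43 windows of type I interferon-stimulated genes, 21 (48.8%) held an ISRE, and 6 of the 19 windows of the IRF group held a GAS. These counts are matches of letters and not sites of binding. Shown are the windows of the 4 genes with the largest rises that had a match, with the matched letters in capitals.
Serpina3f: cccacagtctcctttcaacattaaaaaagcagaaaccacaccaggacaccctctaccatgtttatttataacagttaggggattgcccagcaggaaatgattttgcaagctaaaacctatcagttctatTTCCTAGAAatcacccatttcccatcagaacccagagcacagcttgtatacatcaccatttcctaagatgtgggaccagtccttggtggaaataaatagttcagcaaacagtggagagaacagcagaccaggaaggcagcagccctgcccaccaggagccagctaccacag
Calhm6: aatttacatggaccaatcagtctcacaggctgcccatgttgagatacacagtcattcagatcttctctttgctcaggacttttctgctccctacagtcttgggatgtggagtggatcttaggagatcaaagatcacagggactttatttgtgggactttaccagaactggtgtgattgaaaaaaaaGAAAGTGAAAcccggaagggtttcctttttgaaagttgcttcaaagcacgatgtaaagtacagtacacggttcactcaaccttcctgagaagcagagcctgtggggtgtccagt
Socs1: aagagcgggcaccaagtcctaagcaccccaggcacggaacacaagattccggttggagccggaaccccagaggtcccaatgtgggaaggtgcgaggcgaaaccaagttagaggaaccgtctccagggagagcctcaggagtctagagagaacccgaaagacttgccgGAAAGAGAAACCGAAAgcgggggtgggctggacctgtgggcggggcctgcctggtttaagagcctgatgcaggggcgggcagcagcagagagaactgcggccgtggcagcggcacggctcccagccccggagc
Gbp2: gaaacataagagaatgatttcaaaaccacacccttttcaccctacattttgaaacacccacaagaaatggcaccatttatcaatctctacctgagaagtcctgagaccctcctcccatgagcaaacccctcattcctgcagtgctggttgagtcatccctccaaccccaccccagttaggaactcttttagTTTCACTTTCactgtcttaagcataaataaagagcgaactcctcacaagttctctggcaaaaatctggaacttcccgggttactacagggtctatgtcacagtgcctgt
The Serpina3f window (chr12:104214294-104214593, plus strand) holds a GAS from -121 to -113 relative to the start. The Calhm6 window (chr10:34127923-34128222, minus strand) holds an ISRE from -64 to -55. In the Socs1 window (chr16:10785487-10785786, minus strand) overlapping ISREs lie from -83 to -74 and from -77 to -68, and the Gbp2 window (chr3:142620413-142620712, plus strand) has 1 on the reverse strand from -59 to -50. Cxcl9, Clic5, Cnn3, Clec9a, Upp1 and Ch25h rose at least as strongly as the last of these and had neither set of letters in their windows. Gm4841, Iigp1, Dnase1l3, Gbp4, Gbp8, Sectm1a and Batf2 also did so but matched no window.

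Genes of MHC class II presentation were among the groups that rose, with 12 of 20 measured members higher and 1 lower (median 1.16). Ciita, the transactivator without which class II genes stay silent, went from 8.07 and 6.7 to 13.32 and 12.72 (5.64 ± 0.60, adjusted p = 7e-05). H2-Aa, the alpha chain of the class II molecule I-A, had 13.86 and 12.86 against 16.36 and 16.25 (2.94 ± 0.34), and H2-Ab1, its beta chain, 14.87 and 13.79 against 17.28 and 17.04 (2.83 ± 0.35). H2-Eb1 rose by 3.94 ± 0.36. The chaperones that load peptide rose too, with H2-DMa at 10.6 and 8.55 against 15.45 and 15.19 and H2-DMb1 at 14.64 and 13.9 against 17.11 and 16.88. Rfx5, which binds class II promoters, rose by 1.38. For each of these MHC chains and for Ciita, replicate 2 was the lower of its pair in every condition. With IL4, Ciita had 9.25 and 7.85, and with WT CAF CM 7.09 and 5.29. The fit did not take this shared shift into account. Ctsl, a protease that can trim the invariant chain, was the member that fell, from 16.7 and 17.06 to 14.69 and 15.31.

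In the MHC class I pathway 18 of 28 genes were higher and none was lower (median 1.27). The largest rises were in genes that supply peptide. Tap1 and Tap2, which carry peptides into the endoplasmic reticulum, differed by 3.36 ± 0.26 and 3.30 ± 0.26, with Tap1 at 12.71 and 12.9 against 16.1 and 16.22. Tapbpl, a peptide editor, rose from 9.72 and 9.64 to 13.82 and 13.58. The 3 catalytic subunits of the immunoproteasome, Psmb8, Psmb9 and Psmb10, rose by 2.80 ± 0.23, 3.20 ± 0.32 and 3.12 ± 0.25. The heavy chains H2-K1 (0.33, adjusted p = 0.28) and H2-D1 (0.24, adjusted p = 0.53) and the light chain B2m (0.16, adjusted p = 0.68) did not pass the test. B2m was at 18.64 and 18.68 without IFNγ, near the top of the scale. H2-T22, a non-classical class I gene with near copies in the genome, rose by 2.54.

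Chemokines moved both ways, with 7 of 34 higher and 4 lower (median 0.05). Those that bind CXCR3 all rose. Cxcl10 went from 9.6 and 8.04 to 15.7 and 15.99 (7.02 ± 0.38) and Cxcl11 from 4.31 and 4 to 8.06 and 9.12, beside Cxcl9. Ccl12, a ligand of CCR2, went from 4.41 and 4.59 to 10.82 and 12.16, and Ccl5, which attracts T cells and monocytes, from 7.79 and 8.07 to 11.8 and 11.29 (3.62 ± 0.76). For Ccl5 the arrays of the other stimuli ranged from 7.6 to 16.94, and the call was lost without not stimulated replicate 1 (3.48, adjusted p = 0.059) or IFNγ replicate 1 (3.36, adjusted p = 0.065). Ccl2 had 6.46 and 7.4 against 10.62 and 13.01 (4.88 ± 0.93), and the CAF CM arrays lay at 10.55 to 12.75. Without IFNγ replicate 2 Ccl2 lost its call (3.69). A limma fit with a trend and robust variance called neither Ccl2 (adjusted p = 0.081) nor Ccl5 (adjusted p = 0.1). Cxcl2, a neutrophil attractant, fell from 9.04 and 8.44 to 6.14 and 5.9, Ccl9 from 17.11 and 17.21 to 13.69 and 14.95, and Ccl3, an attractant of monocytes, by 2.23 ± 0.41.

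Of 19 chemoattractant receptors, 2 were higher and 6 lower. Cxcr4 was the largest of the falls. Both receptors of the complement peptide C5a fell, C5ar1 from 15.26 and 15.18 to 13.23 and 14.05 and C5ar2 from 9.34 and 9.35 to 6.75 and 7.04. Cx3cr1, the fractalkine receptor, went from 6.17 and 5.97 to 3.88 and 4.36, which is dim. The 2 that rose were Ccr2, the receptor that brings monocytes out of the marrow (9.82 and 9.68 against 11.94 and 11.95), and Ccrl2, a receptor that binds chemerin without signalling (1.52 ± 0.31). Ccrl2 lost its call without not stimulated replicate 2 (1.18, adjusted p = 0.067) or IFNγ replicate 2 (1.45, adjusted p = 0.052).

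Ligands that macrophages show to T cells rose more often than they fell, with 12 of 30 higher and 4 lower (median 0.61). Cd86, which costimulates T cells through CD28, went from 7.53 and 7.78 to 12.53 and 12.89, or 33.2-fold (5.06 ± 0.29, adjusted p = 4.8e-07). All IL4 and CAF CM arrays had it between 6.8 and 8.21. Cd80, which binds the same receptor, differed by -0.60 and did not pass the test. Cd40, through which helper T cells activate macrophages, rose from 7.07 and 7.88 to 11.44 and 12.7. Ligands known to inhibit T cells moved both ways. Cd274, which encodes PD-L1, had 13.14 and 12.48 against 16.91 and 16.89 (4.09 ± 0.30), and Pdcd1lg2, which encodes PD-L2, 5.64 and 5.25 against 9.13 and 8.53, still below the IL4 arrays at 13.93 and 13.67. Slamf8 rose by 6.15 ± 0.37 and Icam1, which holds T cells to the macrophage, from 11.21 and 10.5 to 13.78 and 13.94. Vsig4, a complement receptor that inhibits T cells, fell from 8.03 and 9.23 to 4.46 and 5.54, and Cd276 by 2.30 ± 0.27.

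Among 28 inflammatory cytokines 8 were higher and 2 lower. Tnfsf10, which encodes the death ligand TRAIL, went from 7.77 and 7.47 to 13.76 and 14 (6.26 ± 0.23), while no IL4 or CAF CM array exceeded 7.74. Tnf rose from 11.25 and 11.36 to 13.99 and 14.56, and the CAF CM arrays lay at 13.71 to 16.18. Tnfsf13b, the B cell survival factor BAFF, rose by 3.26 ± 0.38 and Il27 by 3.14 ± 0.18. Il18bp, the decoy that binds IL18 and limits IFNγ production, had 11.1 and 11.31 against 14.82 and 15.17. Il1b fell from 7.23 and 6.69 to 5.12 and 5.56 (adjusted p = 0.018), whereas the other stimuli reached 15.79. The call of Il1b was lost without not stimulated replicate 1 (-1.35, adjusted p = 0.15) or IFNγ replicate 1 (-1.40, adjusted p = 0.14), and without the latter no cytokine was called lower. Il6 (-0.20) and Il12a (0.50) did not pass the test. Receptor chains for cytokines gave 6 of 24 higher and 3 lower. Il12rb1 and Il12rb2, the 2 chains of the IL12 receptor, both rose, from 4.04 and 3.89 to 9.85 and 10.2 and from 7.34 and 6.75 to 12.34 and 12.43. Il7r fell from 15.68 and 15.54 to 12.81 and 13.45.

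The metabolic genes tied to macrophage activation gave 7 of 22 higher and 4 lower. Nos2, the inducible nitric oxide synthase, had 4.58 and 5.86 against 7.98 and 8.72 (3.13 ± 0.64, adjusted p = 0.0064). The CAF CM arrays reached similar levels, from 7.22 to 9.46. The call of Nos2 was lost without not stimulated replicate 1 (2.49) or IFNγ replicate 2 (2.76). It was kept without not stimulated replicate 2 or IFNγ replicate 1. Ido1, which degrades tryptophan, went from 2.91 and 2.97 to 5.51 and 4.75, so that it stayed dim in both IFNγ arrays. Kynu, further along the same pathway, rose from 5 and 4.14 to 11.87 and 10.77 (6.75 ± 0.40). Wars, the tryptophan tRNA synthetase, rose by 4.04 ± 0.19. Acod1, which makes itaconate, went from 9.08 and 8.92 to 14.51 and 15.19, and CAF CM arrays reached 17.42. Of the arginases, which compete with NOS2 for arginine, Arg2 fell from 6.7 and 6.24 to 4.26 and 4.34 (-2.17 ± 0.30). Arg1 was dim on all 4 arrays, at 5.17 and 4.99 against 5.31 and 5.19, so that a fall could hardly show. Its difference was 0.17 (adjusted p = 0.96). The arginine importer Slc7a1 rose by 2.29 ± 0.25. Of the 4 falls 2 were left without not stimulated replicate 1 or either IFNγ replicate. Thbs1, which encodes the matricellular protein thrombospondin-1 (-1.12, adjusted p = 0.12), and the membrane protein gene Sez6l2 (0.25) did not pass the test.

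Subunits of the phagocyte oxidase and antimicrobial effectors counted 4 of 24 higher (2 without not stimulated replicate 1) and 3 lower. Apobec3, a cytidine deaminase that restricts retroviruses, went from 10.77 and 10.81 to 14.01 and 14.15 (3.29 ± 0.23). Isg15 rose from 6.91 and 7.78 to 9.9 and 10.01. Apol7c and Rsad2 were the other called rises, so no oxidase subunit was called higher. Slc40a1, which also counts among the iron genes, was among the falls. The catalytic oxidase subunit Cybb, bright throughout, had 17.76 and 17.64 against 17.53 and 17.42 and was not called.

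Genes best known as type I interferon targets rose as well, 32 of 46 with none lower (median 1.35). Oasl1, an inhibitor of IRF7 translation, went from 6.19 and 6.37 to 11.04 and 11.65 (5.07 ± 0.43), Slfn1 by 4.77 ± 0.54 and Zbp1, a sensor of Z-form nucleic acid, from 10.16 and 10.66 to 13.93 and 13.78. Mx1, an antiviral GTPase, had 9.92 and 10.36 against 13.36 and 14.49. Ifitm1, which blocks virus entry, rose by 3.17 ± 0.24 and Ifit2, which binds viral RNA, by 2.64 ± 0.33. Leaving out an array gave 23 to 31 calls. Ubiquitin-like and poly-ADP-ribose enzymes of the interferon response counted 15 of 20 higher and none lower (median 1.60), with Parp8 at 10.43 and 9.91 against 13.35 and 13.38, Parp11 higher by 2.56 ± 0.27 and Parp3 by 2.53 ± 0.22.

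Of 31 inflammasome and cell death effectors 19 were higher and 1 lower (median 1.10). Mlkl, which pierces the membrane in necroptosis, rose from 11.68 and 11.78 to 14.67 and 14.66, and Ripk3, the kinase that activates it, from 9.26 and 9.23 to 11.5 and 11.49. Of the inflammatory caspases, Casp4 rose by 1.94 ± 0.19 and Casp1 from 15.09 and 14.9 to 16 and 16. Serpinb9, which protects cells from granzyme B, rose with them, from 9.92 and 10.59 to 13.27 and 14. Tnfrsf1b, a TNF receptor, was the member that fell, from 13.9 and 13.87 to 11.44 and 11.63, below all 6 other arrays (14.32 to 15.41).

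Of the sensors of microbes, 13 of 31 rose and 6 fell, and leaving out an array kept 12 or 13 rises. Among receptors of endosomes the rises were in Tlr12 (4.3 and 4.17 against 9.65 and 8.69), Tlr11 (4.96 and 4.54 against 9.04 and 9.05) and Tlr9, the receptor for unmethylated DNA (9.85 and 10.32 against 13.57 and 14.2). Tlr7, a receptor for single-stranded RNA, fell from 17.12 and 17.07 to 14.83 and 15.67. In the cytosol Sting1, the adaptor of DNA sensing, rose from 11.86 and 11.59 to 15.08 and 15.12 and Nod1 by 2.95 ± 0.31. At the surface Cd14, the co-receptor for lipopolysaccharide, fell from 14.27 and 14.3 to 9.94 and 10.07 (-4.28 ± 0.17) and Tlr2, which reads bacterial lipoproteins, by 1.96 ± 0.30. Of 18 NF-kB subunits and inhibitors none rose and 3 fell, with 1 fall left without not stimulated replicate 1 or IFNγ replicate 1. Of the genes that fell, Nfkbia, Tnip1 and Ikbkg, each lost its call in at least 1 of the fits without an array, and Tnip1 and Ikbkg did so without IFNγ replicate 2.

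Among 15 Fc receptors and their partners 3 were higher and 3 lower. Fcgr4, an activating receptor for IgG, went from 11.47 and 11.65 to 16.06 and 16.45 (4.70 ± 0.35), above all 6 other arrays. Syk, the kinase downstream of such receptors, fell from 13.38 and 13.2 to 11.84 and 11.75. Complement genes counted 6 of 25 higher and 4 lower. Cfb, factor B of the alternative pathway, had 5.01 and 5.05 against 11.17 and 10.11 (5.61 ± 0.52), below the CAF CM arrays at 11.51 to 13.44. C1ra, a protease of the classical pathway, rose by 2.49 ± 0.33. The 6 rises became 3 without IFNγ replicate 1, and the 4 falls became 2 without not stimulated replicate 1.

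On the falling side, scavenger receptors and lectins counted 12 of 31 lower and 1 higher (median -0.42, with 10 or 11 lower after leaving out an array). Mrc1, the mannose receptor, fell from 14.62 and 14.65 to 11.66 and 12.6 (-2.50 ± 0.39), and the CAF CM arrays had it at 10.21 to 13.92. Stab1, which clears modified proteins, fell from 11.11 and 11.04 to 8.53 and 8.62, and Colec12, a scavenger receptor, from 11.93 and 11.15 to 7.72 and 7. The neighbouring C-type lectins Clec4n (10.59 and 10.25 against 7.47 and 7.36) and Clec4a2 (11.93 and 12.36 against 9.31 and 9.49) fell beside Clec4d. For receptors and bridges to dying cells the count was 6 of 27 lower and 3 higher. Gas6, the ligand of TAM receptors, fell from 13.2 and 13.59 to 8.84 and 9.58, and Mfge8, a bridge to phosphatidylserine, from 14.94 and 14.52 to 13.06 and 12.69. Axl, the receptor for GAS6, was higher by 1.04 ± 0.26, a call that was lost without not stimulated replicate 1 (0.91, adjusted p = 0.15) or IFNγ replicate 1 (0.86, adjusted p = 0.16). Timd4, a receptor for phosphatidylserine, rose from 6.38 and 6.53 to 8.27 and 8.63.

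Inhibitory receptors of myeloid cells counted 8 of 18 lower and 2 higher, and without not stimulated replicate 1 the falls were 5. Cd33, a sialic acid-binding receptor, fell from 8.39 and 8.22 to 6.12 and 6.26, and Siglecf from 9.4 and 8.63 to 6.31 and 5.85. Cd300lf, which binds lipids, rose from 10.61 and 10.46 to 12.68 and 13.44. Genes known as IL4-induced counted 7 of 32 lower and 5 higher.

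Of 27 macrophage identity genes and lineage factors 10 were lower and 3 higher (median -0.68), the latter falling to 1 without not stimulated replicate 1. Egr2, a zinc finger factor, had 12.95 and 12.63 against 9.63 and 9.72, Cebpa, a factor of myeloid fate, 12.6 and 12.32 against 9.82 and 9.38, and Bhlhe41, which sustains self-renewal of macrophages, 13.75 and 13.7 against 10.74 and 10.39. The CAF CM arrays had Egr2 at 8.81 to 11.39 and Cebpa at 9.02 to 9.74, but Bhlhe41 at 12.6 to 13.92. Aif1, which encodes the actin-bundling protein IBA1, rose from 13.63 and 13.94 to 16 and 16.03. Spi1, which encodes the lineage factor PU.1, had 18 and 17.97 against 18.04 and 17.98, and Itgam, which encodes CD11b, 15.98 and 15.98 against 15.2 and 15.58. Neither was called.

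Of 22 genes of lipid uptake and cholesterol export, 10 were lower and 2 higher, or 1 higher without not stimulated replicate 2 or IFNγ replicate 1 (median -0.75). Abca1, which exports cholesterol, went from 13.49 and 13.12 to 9.83 and 9.89 (-3.44 ± 0.23) and Mylip, which degrades the LDL receptor, by -2.27 ± 0.29. Both are known targets of the LXR nuclear receptors. Rxra, the partner of LXR, fell from 9.12 and 9.13 to 7.36 and 6.84 and Pparg, a nuclear receptor of lipid uptake, from 12.1 and 12.2 to 10.28 and 10.66. Without IFNγ replicate 1 Pparg lost its call (-1.49, adjusted p = 0.064). Ch25h, whose product is known to curb the processing of SREBP2, the factor that drives sterol synthesis genes, had risen by 7.46 ± 0.37. A link between Ch25h and the other genes of this paragraph was not tested. Genes of sterol synthesis counted 10 of 19 lower and 2 higher (median -1.10). Hmgcs1, an early enzyme of the pathway, fell from 13.22 and 13.38 to 11.21 and 10.8 (-2.30 ± 0.27) and Idi1 from 10.16 and 10.58 to 7.99 and 7.37. Sqle had 9.53 and 10.06 against 7.45 and 7.67, but lost its call without not stimulated replicate 2 (-1.97, adjusted p = 0.089), IFNγ replicate 1 (-2.12, adjusted p = 0.079) or IFNγ replicate 2 (-2.35, adjusted p = 0.053). The count was unsteady, with 8, 4, 6 and 3 falls left without not stimulated replicate 1 and 2 and without IFNγ replicate 1 and 2 in turn, and no rise in any of these fits. The CCAAT letters bound by NF-Y stood in 15 of the 18 windows of this group (83.3%) against 37.4% of all windows, and shares were also high in other groups, such as the citrate cycle (69.7%), mitosis (69.2%) and MHC class II (65%).

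Targets of NRF2, the factor that answers oxidative stress, were the group with the largest share of falls, 19 of 23 with 2 higher (median -1.70). Gsta3, a glutathione transferase, fell from 9.41 and 9.53 to 5.89 and 5.38 (-3.84 ± 0.27). Srxn1, which repairs peroxiredoxins, fell from 12.7 and 12.93 to 10.18 and 9.78. Hmox1, heme oxygenase-1, went from 16.22 and 16.44 to 14.35 and 14.2, and Nqo1, a quinone reductase, from 8.49 and 8.54 to 5.97 and 5.84. Gclm, the modifier subunit of the enzyme that starts glutathione synthesis, had 16 and 15.92 against 14.32 and 12.67, so that the IFNγ replicates differed while both lay lower. Nfe2l2, which encodes NRF2, differed by -0.98 and Keap1, which targets it for degradation, by 0.78. Both lost their calls without any 1 of the 4 arrays, with values of -1.06 to -0.89 for Nfe2l2 and 0.66 to 0.89 for Keap1. Without IFNγ replicate 2 the falls were 12, and without not stimulated replicate 1 they were 13, with 1 rise left in each of these fits. Iron and heme genes counted 8 of 22 lower and none higher, with Slc40a1 first and Flvcr1, a heme exporter, at 13.39 and 13.42 against 10.82 and 11.16. Without 1 of the arrays 5 or 6 of these 8 were called.

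**Figure D3:**
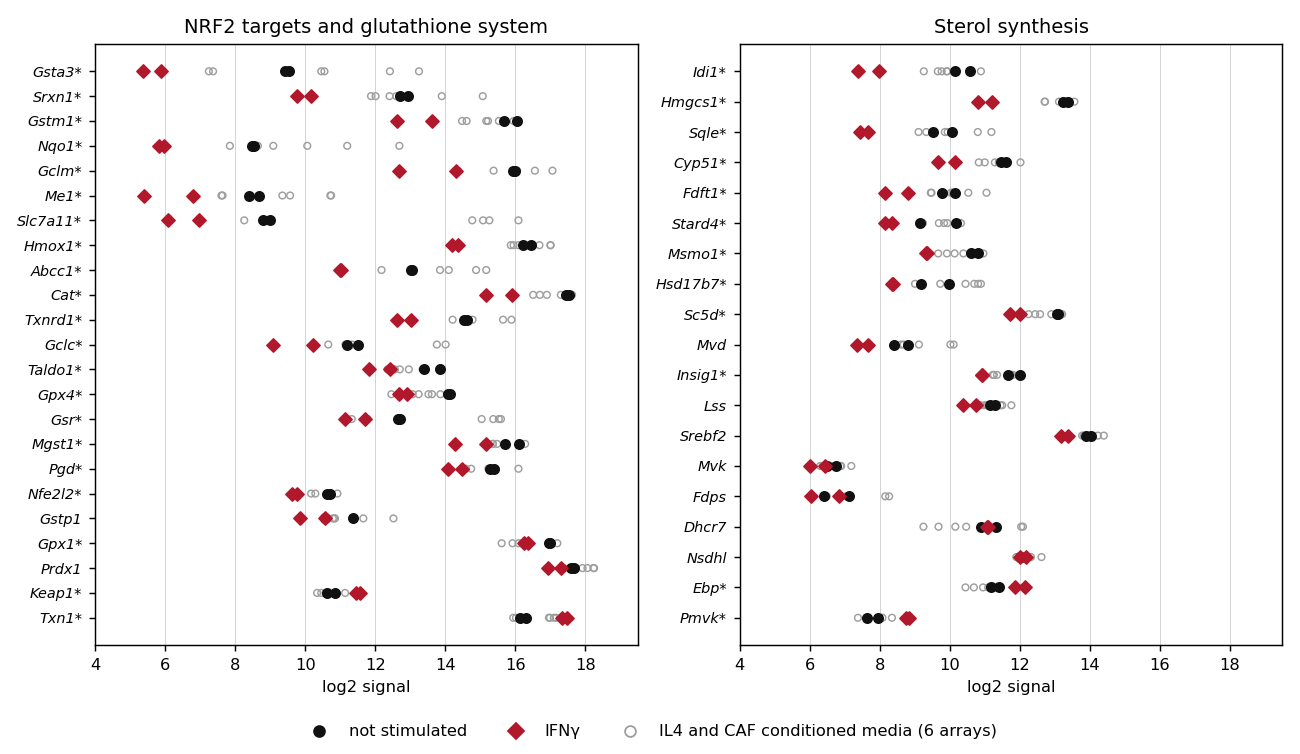
Log2 signal of each array for the NRF2 target and glutathione genes and the sterol synthesis genes, with not stimulated arrays as black circles, IFNγ arrays as red diamonds and the other 6 arrays as open grey circles. An asterisk marks a called gene, 21 of 23 in the first group and 12 of 19 in the second, and Gsta3 is the NRF2 target whose IFNγ arrays, at 5.89 and 5.38, lie farthest below the not stimulated ones.

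Of 28 genes of glycolysis and the hypoxia response 11 were higher and 1 lower (median 0.71). Hk3, a hexokinase, went from 11.72 and 11.61 to 14.83 and 14.88, Pfkp, a phosphofructokinase, from 12.28 and 12.72 to 15.04 and 15.28, and Hif1a, the hypoxia-inducible factor, from 13.1 and 13.08 to 14.89 and 15.01. The CAF CM arrays had Hif1a at 14.66 to 16.02, but Hk3 at 11.7 to 12.5 and Pfkp at 12.06 to 12.38. Ndrg1, a stress gene, was the one that fell (-2.92 ± 0.27). Oxidative phosphorylation subunits counted 12 of 34 higher and none lower (median 0.56), with Cycs, which encodes cytochrome c, at 13.68 and 13.86 against 15.84 and 15.77 and Cox7b higher by 1.38 ± 0.22. That count fell to between 6 and 8 when 1 array was left out. The citrate cycle had 4 of 26 higher (2 without not stimulated replicate 1 or IFNγ replicate 2) and 1 lower (2 without IFNγ replicate 1), the latter being Idh1, the cytosolic isocitrate dehydrogenase that supplies NADPH (15.88 and 15.71 against 13.25 and 12.42).

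Of 24 genes of the amino acid and endoplasmic reticulum stress response 8 rose and none fell, with 5 to 7 rises left without 1 of the arrays. They were led by Psat1, an enzyme of serine synthesis, at 6.92 and 6.93 against 12.93 and 13.31 (6.20 ± 0.26). Mthfd2, which passes carbon units in mitochondria, rose from 8.01 and 8.23 to 11.86 and 11.54, Asns, which makes asparagine, by 2.77 ± 0.37, and Slc7a5, an importer of large neutral amino acids, by 2.21 ± 0.30. The CAF CM arrays were as high, at 11.63 to 12.53 for Mthfd2 and 12.62 to 13.34 for Asns, but Psat1 lay at 7.73 to 8.45 there.

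Cell cycle genes were read by phase. Of 43 genes of DNA replication and S phase 22 were higher (51.2%) and none lower (median 0.84). Of 46 genes of mitosis 2 were higher (4.35%) and 4 lower (8.7%), with a median of 0.00. The mitosis shares are near the 5.38% higher and 6.68% lower over all probe sets. Ccne1, which encodes the cyclin that starts S phase, had 6.18 and 6.9 against 9.84 and 9.52 (3.14 ± 0.26). Mcm5, a subunit of the replicative helicase, went from 6.89 and 6.75 to 8.9 and 9.02, and Uhrf1, which copies DNA methylation, from 7.73 and 8.12 to 10.28 and 10.12. E2f8, a repressor of late E2F targets, rose by 2.60 ± 0.25. The mitotic genes Mki67 (-0.48), Top2a (0.40) and Plk1 (-0.81) did not pass the test, and Ube2c, which helps to end mitosis, fell from 7.96 and 7.62 to 5.55 and 5.62. Leaving out not stimulated replicate 1 or IFNγ replicate 1 left 10 and 14 S phase rises in place of 22. The mitotic counts became 0 higher and 2 lower without not stimulated replicate 1, 2 and 2 without IFNγ replicate 1, and 0 and 3 without IFNγ replicate 2. The promoter letters TTTGAA, the cell cycle homology region of mitotic genes, stood in 30 of the 39 windows of the mitosis group (76.9%) and in 5 of the 39 of the S phase group, against 17.9% of all windows.

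Inhibitors and D-type cyclins counted 3 of 22 higher and 4 lower, or 2 lower without not stimulated replicate 1 or IFNγ replicate 1. Rbl1, the pocket protein p107, rose from 9.15 and 9.03 to 12.78 and 12.78. Ccnd2, cyclin D2, rose from 5.41 and 5.6 to 8.62 and 10.49 (4.05 ± 0.48). Mxi1, an antagonist of MYC, fell from 10.94 and 10.72 to 8.46 and 7.99, and Gadd45a, a growth arrest gene, by 1.86 ± 0.29. Myc itself differed by -0.22 and was not called. Ribosome biogenesis genes, which include known MYC targets, counted 3 of 28 higher, or 1 without IFNγ replicate 1 or either not stimulated replicate, and none lower.

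**Figure D4:**
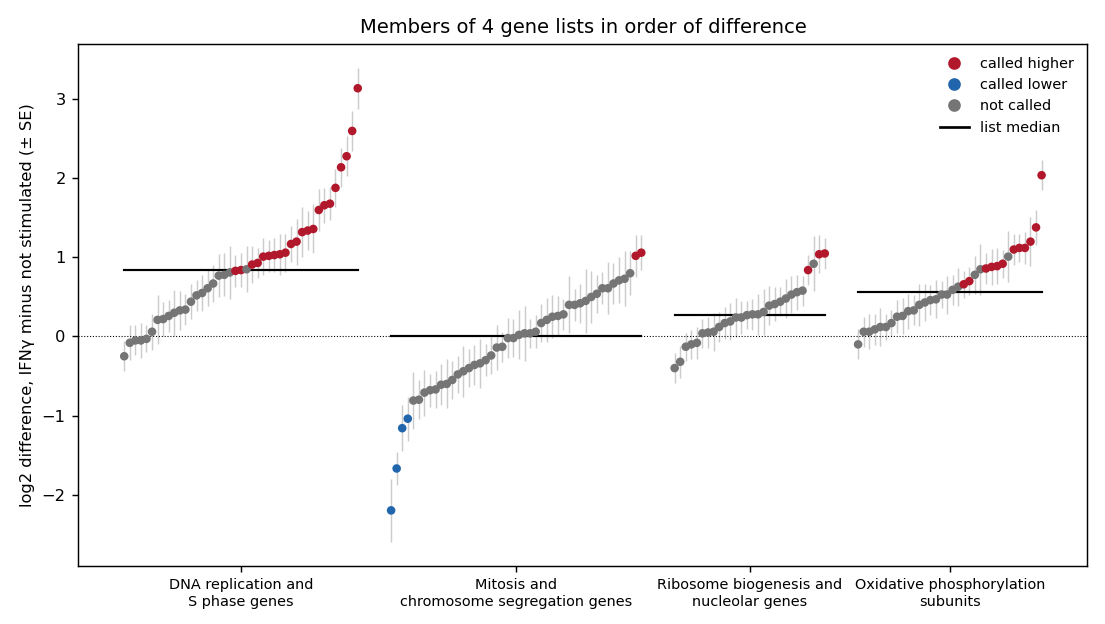
Log2 difference between IFNγ and not stimulated BMDMΦs ± SE for each measured gene of DNA replication and S phase, mitosis, ribosome biogenesis and oxidative phosphorylation, in order of difference along the x axis. Red points were called higher, blue points lower and grey points not called, and a black line marks the median of each group. S phase genes lie mainly above 0 (median 0.84), mitosis genes around it (median 0.00), and oxidative phosphorylation subunits mainly above it (median 0.56).

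Lysosomal hydrolases and proton pump subunits counted 7 of 26 lower and 1 higher. The proton pump subunit Atp6v0d2 fell from 16.18 and 15.75 to 13.05 and 12.59 and the collagen-degrading cathepsin Ctsk from 8.59 and 8.43 to 5.83 and 6.68. Ctsc, which activates granule proteases, rose from 15.47 and 15.86 to 18.25 and 18.28. In the prostaglandin pathway 4 of 22 rose and 5 fell. Ptgs2, the inducible cyclooxygenase, had 6.2 and 5 against 12.34 and 11.88 (6.51 ± 0.47) and Pla2g4a, which releases its substrate, 9.2 and 10.02 against 13.56 and 13.89. Hpgd, which inactivates prostaglandins, moved the other way, from 13.38 and 13.58 to 9.9 and 10.23. The 5 falls became 2 without not stimulated replicate 1 or IFNγ replicate 2.

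Matrix metalloproteinases and plasminogen activators counted 5 of 23 lower and 1 higher. Mmp12, the macrophage elastase, fell from 17.94 and 17.9 to 14.27 and 14.83 (-3.37 ± 0.21), below all 6 other arrays (17.18 to 18.23), and Mmp8 from 11.68 and 11.01 to 7.63 and 7.52. Mmp25, anchored in the membrane, rose from 4.51 and 4.33 to 9.51 and 9.32. Growth factors and their receptors counted 8 of 33 lower and 5 higher. Igf1, a growth factor of repair, had 17.9 and 17.88 against 14.79 and 14.93 (-3.03 ± 0.19), and Pdgfa 9.24 and 9.99 against 6.65 and 7.29. Acvrl1, a receptor of the TGFβ family, rose by 2.00 ± 0.22, and Tgfb1 differed by -0.46 and was not called. Without IFNγ replicate 2 the 8 falls became 4, and without not stimulated replicate 1 they became 5 and the 5 rises 3. Integrins and cytoskeletal genes counted 6 of 27 lower and 2 higher, with 3 or 4 falls after an array was left out. Of 22 matrix and matricellular genes none rose and 3 fell.

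**Figure D5:**
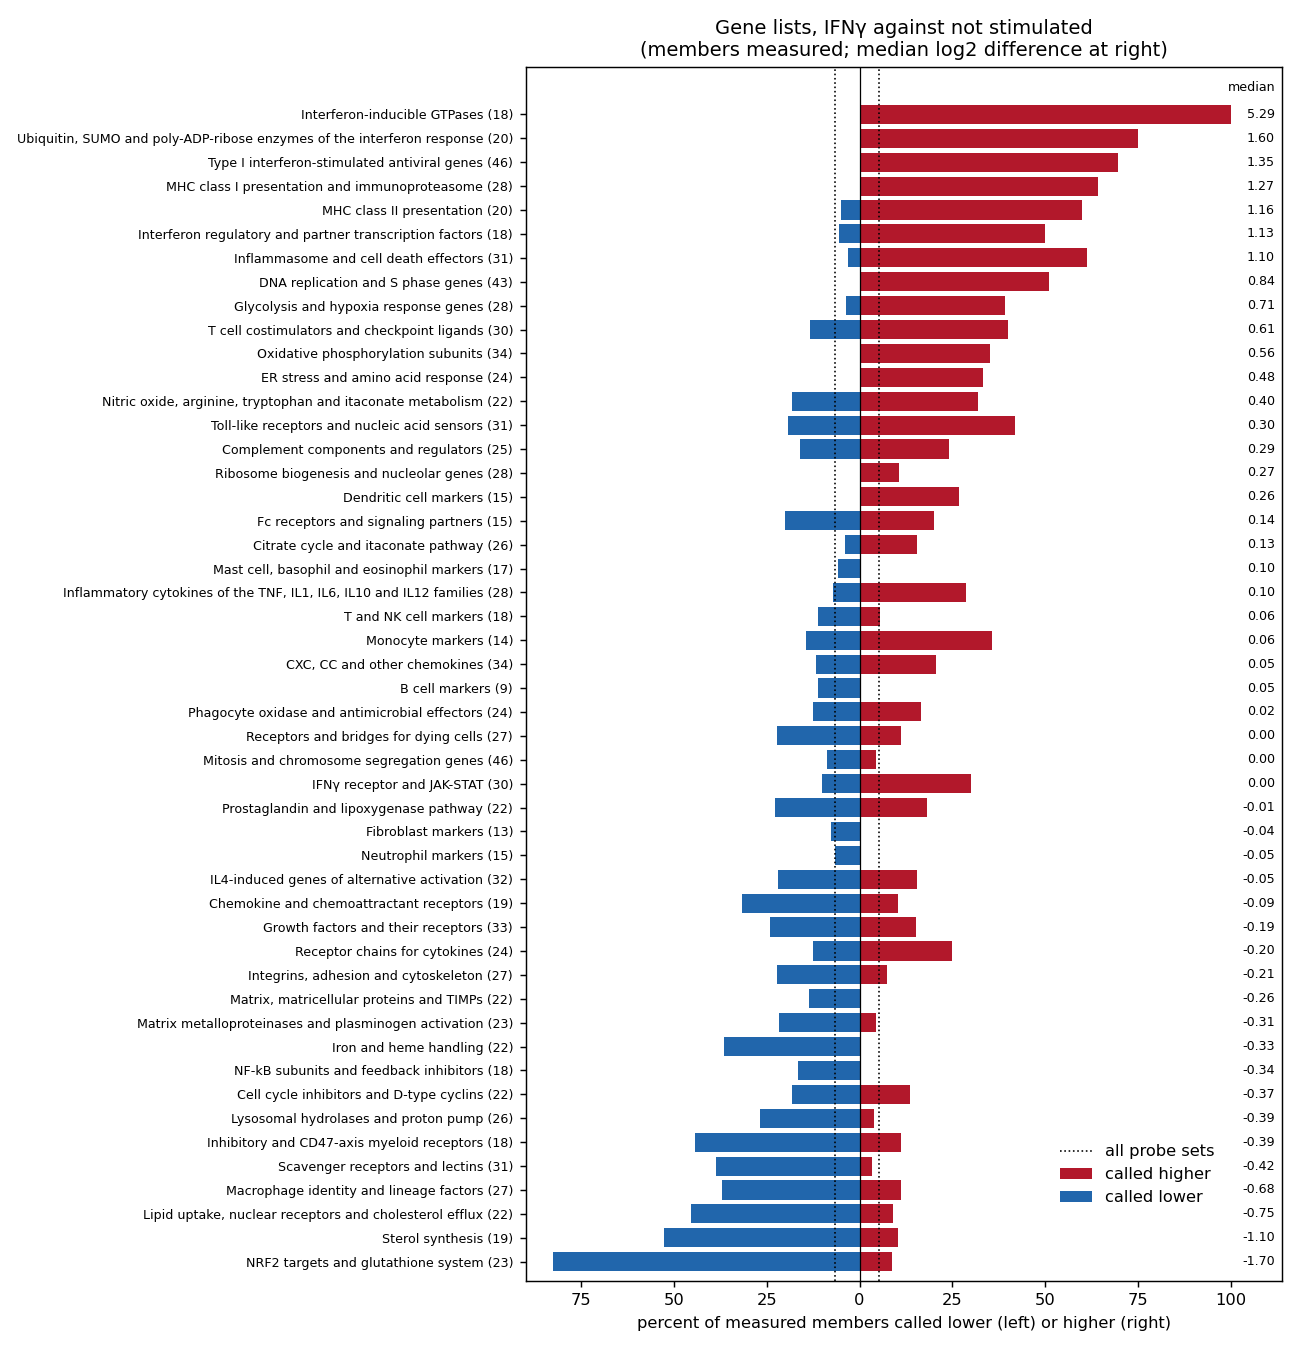
Percent of the measured genes of each list that were called higher (red, to the right) or lower (blue, to the left) with IFNγ, with the median log2 difference at the right edge and dotted lines at 5.38% higher and 6.68% lower for all probe sets. The GTPases reach 18 of 18 higher, and the NRF2 targets 19 of 23 lower.

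At an unadjusted p under 0.05 in limma, some groups without a call in a direction had genes in it. These were 1 fall among the type I interferon-stimulated genes, 2 falls in the amino acid response, 2 rises among NF-kB genes, 1 rise each in the matrix, fibroblast and neutrophil lists, and 2 rises among mast cell markers, while the other groups without a call had none. The methods' t-test without adjustment gave no fall for the GTPases, MHC class I, type I interferon, ubiquitin-like, S phase and oxidative phosphorylation groups and no rise for iron and heme genes. It gave 2 falls each for ribosome biogenesis and the amino acid response, 2 rises for matrix genes and 1 rise each for NF-kB genes and neutrophil markers.

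Markers of other cells that a marrow culture could hold were read as well. Monocyte markers, which share the lineage, counted 5 of 14 higher and 2 lower, with no fall left without not stimulated replicate 2 or IFNγ replicate 1. Of 15 dendritic cell markers 4 rose (Clec9a, Xcr1, Batf3 and Bst2, the last of which lost its call without any 1 of the 4 arrays at 0.69 to 0.85) and none fell. The log2 of their summed signal lay between 15.76 and 15.77 without and between 16.63 and 16.73 with IFNγ. Xcr1, the receptor for XCL1, rose from 3.73 and 3.58 to 6.21 and 6.47. Bst2 alone, at 15.75 and 15.76 against 16.45 and 16.61, lay close to these sums, and 9 of the 15 markers were dim. The defining dendritic cell genes Flt3 (3.61 and 3.51 against 3.89 and 3.68) and Zbtb46 (3.77 and 3.65 against 3.68 and 3.47) were dim on all 4 arrays. Of 18 T and NK cell markers Klrk1, which encodes the activating receptor NKG2D, rose from 5.38 and 5.35 to 10.33 and 11.06 and 2 fell (1 without not stimulated replicate 1 or either IFNγ replicate). Their summed signal lay between 10.91 and 11.24 without and between 11.07 and 11.59 with IFNγ, 14 of the 18 were dim, and Cd3e was at 3.97 and 4.09 against 3.78 and 4.25. The brightest of the 18 was Cd4 without IFNγ (10.62 and 11) and Klrk1 with it, where Cd4 was at 9.15 and 9.34. Fibroblast, neutrophil, B cell and mast cell lists (13, 15, 9 and 17 genes measured) each had no rise and 1 fall. These falls are 7.69%, 6.67%, 11.1% and 5.88% of the lists, beside 6.68% lower over all probe sets. In lists of this size, 1 fall is about that share. The fibroblast call was lost without not stimulated replicate 2 or either IFNγ replicate, and the B cell call without not stimulated replicate 1. Their summed signals went from between 8.82 and 8.97 to between 8.55 and 8.71 for fibroblasts, from between 13.29 and 13.77 to between 12.89 and 12.99 for neutrophils, from between 9.04 and 9.7 to between 8.17 and 8.25 for B cells, and from between 9.43 and 9.87 to between 8.6 and 8.73 for mast cells, basophils and eosinophils. The part of other cells in the differences above was not tested.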

How the data were processed

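RNA of the 10 BMDMΦ cultures was labelled with the GeneChip WT PLUS kit and hybridised to mouse Clariom S arrays, 1 array per sample. The authors deposited normalized log2 signals per probe set. The submitters' processing notes name RMA (background correction, quantile normalization and probe set summary) and limma, and the study's methods name the TAC software, all without a version used here. These steps make arrays comparable but compress rises of probe sets near the top of the scale and changes near the floor. Microarray signals have no read depth, so the number of arrays limits the precision, and 0 columns were left out.

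Signals were fitted with limma 3.58.1 (R 4.3.3) as a mean per condition over all 10 arrays, the Benjamini-Hochberg method was applied over 22206 probe sets, and a probe set was called at an adjusted p under 0.05. Differences are given ± the SE of that fit. Replicate numbers were not used as a block. Symbols came from the platform annotation; where a gene had several probe sets (55 genes), the brightest by mean signal was taken. The 49 gene lists (1199 symbols, 1099 matched) and the comparison were chosen with earlier results of these data known. Named genes were Cxcl9, Cd86, genes the study assayed, the 15 largest called rises and falls, the 6 largest called members of each list (or 2 by p-value where none was called), and all JAK-STAT and IRF members (299 genes, 268 called, 211 called under every setting but the adjusted t-test and the 2-fold minimum). A further 40 genes were chosen after their values were seen, mainly cell type markers (Csf1r, Adgre1, Itgam, Flt3, Zbtb46, Cd3e), members that were not called (H2-K1, H2-D1, B2m, Cd80, Il6, Il12a, Cybb, Mki67, Top2a, Plk1) and members that complete a family (9930111J21Rik1, 9930111J21Rik2, Axl, Casp1, Casp4, Ccl3, Ccl5, Ccl9, Ccrl2, Cd276, Cxcl2, H2-T22, Ifit2, Igtp, Il1b, Irgm1, Keap1, Mfge8, Mx1, Nfe2l2, Pparg, Rfx5, Tlr2 and Tlr7).

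On simulated arrays the fit recovered 29.9%, 85.1% and 97% of log2 changes of 1, 2 and 3, with 5 false calls among 146. Only 67, 67 and 66 of the 22206 simulated probe sets carried these changes, far fewer than were called in the data. Alternatives covered 4 arrays only, a replicate block, array weights, a mean-variance trend, dim probe sets left out, other scaling, the methods' t-test, a 2-fold minimum, and each array left out. Figures were drawn with matplotlib 3.10.9.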

Additional observations from a re-analysis of the deposited data

How the results depend on the processing

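The 2679 called probe sets stayed within 1.5 times under fits of the 4 arrays alone (2559), array weights (2953), a trend with robust variance (2913), quantile normalization (2704), median centring (2531) and dim probe sets left out (2823). A minimum of 2-fold left 974 falls. Leaving out 1 array gave 1642 to 2702 calls, 803 to 1206 higher and 839 to 1496 lower against not stimulated, 1870 to 2750 against IL4 and 2157 to 3286 against CAF CM. The methods' t-test, which the study names for its other experiments and not for the arrays, after Benjamini-Hochberg adjustment gave 13 calls (9 higher, 4 lower), 5 against IL4 and 939 against CAF CM. Unadjusted, at p under 0.05, it gave 3632 against not stimulated and did not call Nos2, Ccl2, Ccl3, C5ar1, Gclm or Asns.

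Same-numbered arrays did not deviate together throughout: their replicate differences correlated at 0.169 for IFNγ and not stimulated BMDMΦs and between -0.049 and 0.194 for the other pairs, so the numbers were not taken as pairs. With the replicate number as a block 2823 probe sets were called. The MHC class II chains named above and Ciita did shift together, with replicate 2 lower in every condition.

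Among the named genes, 9 uncalled differences reversed, each with an adjusted p of 0.8 or more. Leaving out an array gave -0.65 to 0.21 for Myc, -0.28 to 0.06 for Jak1, -0.06 to 0.49 for Stat4, -0.59 to 0.09 for Socs2, -0.11 to 0.06 for Socs5 (0.05 after quantile normalization), -0.17 to 0.23 for Cish, -0.32 to 0.06 for Ptpn11, -0.25 to 0.22 for Cd3e and -0.42 to 0.01 for Il6. The cause was not tested. With 2 arrays a group, changes near 2-fold were often missed in simulation. Far fewer probe sets changed there than were called here, so its rates may not hold for these data. An uncalled gene is not shown to be unchanged.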
